A study of Mus musculus with 4 samples.

Results

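Notch receptors, their ligands and the genes they induce were followed in whole thymus of mice with a miR-181d transgene and of mice with a miR-181d knockin allele. The 10 genes are the receptors Notch1, Notch2 and Notch3, the ligands Dll1, Dll4 and Jag1, the DNA-binding factor Rbpj, and the targets Dtx1, Hes1 and Nrarp. They were chosen by name, as NOTCH1, NOTCH2, NOTCH3, DLL1, DLL4, JAG1, RBPJ, DTX1, HES1 and NRARP in the array's capitals, and every probe with one of these names was taken, RBPJ standing there under the older name RBPSUH. This gave 14 probes of the 45281 on the array, or 10 of the 19579 genes that a probe could be matched to. Both groups were C57BL/6, and each had 2 arrays with 1 sample per array. The transgenic group is the line that the series calls Tg-8, and the other group is the knockin line. The labels used here give no promoter for the transgene, no structure for the knockin allele, and neither age nor sex. Each value places one genotype against the other, since no wild-type thymus was analysed here. The labels do not say that the 2 samples of a group came from separate animals, so the p-values rest on the spread between these samples. Each standard error by limma also draws on the spread of all probes, so a probe's own arrays set only part of it. In the transgenic group the spread between samples may be technical. The 2 knockin samples differed in sex-linked transcripts, as given below, so they did not come from 1 animal and their spread is mixed with sex.

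Notch receptors are cell-surface proteins that are cut on binding a Delta-like or Jagged ligand of a neighbouring cell. The freed intracellular part enters the nucleus, joins Rbpj and switches on target genes, some of which restrain the pathway in turn. In the thymus, Dll4 on epithelial cells acts on Notch1 of incoming progenitors and commits them to the T cell lineage, and Notch signalling then falls as thymocytes become double-positive. The miR-181 family bears on this circuit because Nrarp has been described in the mouse as one of its targets. MicroRNAs of a family share the seed, the stretch that pairs with target transcripts.

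The mature 5p sequences of the mouse family, from RefSeq on GRCm38.p6, are shown because both genotypes are named for miR-181d. Capitals mark the seed, bases 2 to 8 from the 5′ end.
mmu-miR-181a-5p: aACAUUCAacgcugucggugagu
mmu-miR-181b-5p: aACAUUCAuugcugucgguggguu
mmu-miR-181c-5p: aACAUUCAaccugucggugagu
mmu-miR-181d-5p: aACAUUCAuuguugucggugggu
All 4 sequences carried 1 and the same seed. miR-181d-5p, read from the minus strand at chr8:84178759-84178781, differed from miR-181b-5p at 1 of the 23 positions compared and from miR-181a-5p at 4. The array gives no value for these microRNAs by name, so their levels were not analysed here.

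Median signal of all probes lay between 140.5 and 145.8, and 43.2% to 47.8% of probes were above the background limit of their array. That limit was 146.5 to 148.7 intensity units, so the medians lay below it and do not measure brightness above background. Among probes above background on all arrays, deposited signal was higher on knockin replicate 2 than on knockin replicate 1 in 82.9%. The median log2 gap was 0.146. Over the 18068 probes above background on every array, pairs of arrays correlated at r = 0.987 to 0.992 across probes, which are not independent replicates. Markers of double-positive thymocytes were above background on all arrays for 9 of 9 genes, and markers of thymic epithelium for 9 of 12, with Foxn1 and Epcam above it on none. Knockin replicate 2 stood apart in sex-linked transcripts. Xist, made from the silenced X chromosome of females, read 129.5 on it against 4366 to 4570 on the other 3 arrays, and the Y-linked gene Ddx3y read 3519 against 484.4 to 553.7. It therefore carried a male pattern and the others a female one, and the differences of the measurable members and of the named pathway genes are also given without it.

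The comparison asks whether Notch pathway transcripts differ between thymus of the transgenic and of the knockin line. None of the 14 probes passed limma at a Benjamini-Hochberg adjusted p of 0.05 over all probes, the smallest adjusted p being 0.877. At an unadjusted p under 0.05 there was 1 of 14, against 4.63% of all probes. Over the whole array 36 probes passed, or 0.0795%, with 23 higher (0.0508%) and 13 lower (0.0287%) in transgenic thymus. Of the 14 probes, 6 were above background on all 4 arrays, those of Notch1, Notch3, Dtx1, Hes1, Nrarp and Dll1. A further 7 were above it on no array, and 1 probe of Dll4 was above it on 1 array. Among the 6 probes the groups did not separate in any, against 30.8% of the probes above background across the array. The median log2 difference of these 6 was -0.06, beside 0.002 for all probes above background, and 4 of 6 lay below 0, beside 49.4%. These signs rested on single arrays, since without knockin replicate 2 the median was 0.053 with 2 of 6 below 0, without transgenic replicate 1 it was 0.052 with 3 below 0, and without knockin replicate 1 it was -0.17 with 6 below 0. Throughout, a log2 difference is the transgenic mean less the knockin mean of normalised log2 intensity, with limma's standard error and 2 arrays in each group.

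**Figure D1:**
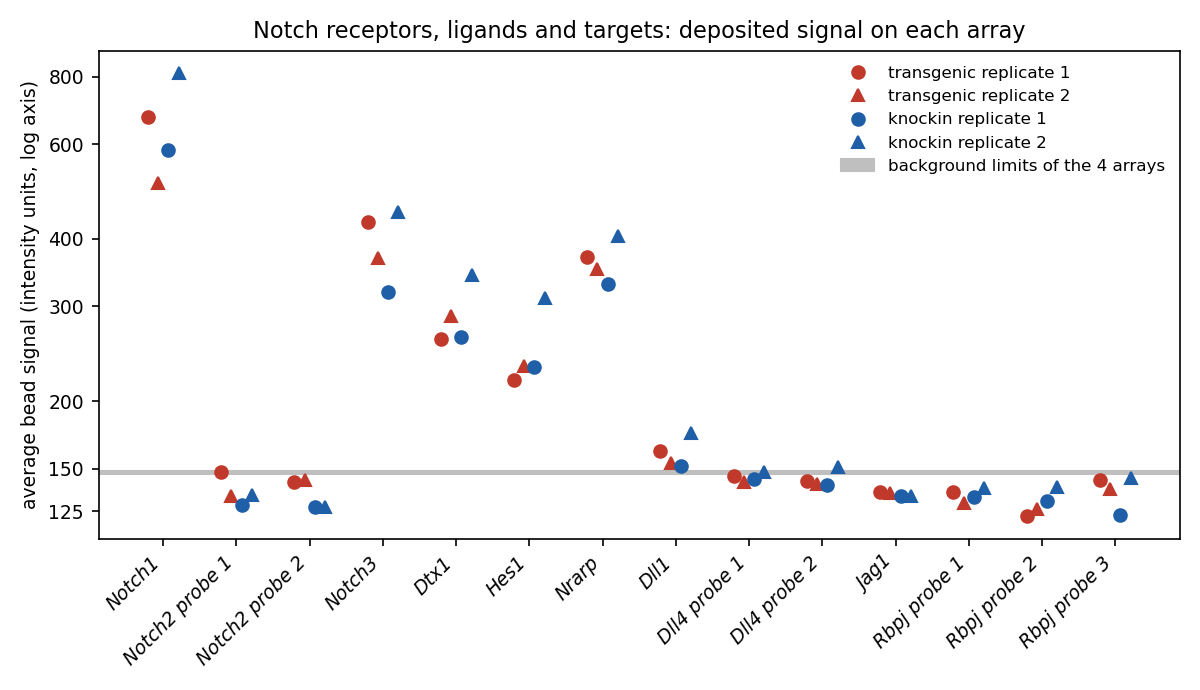
Deposited bead signal (intensity units, log axis) of all 14 probes on each of the 4 arrays; red points are transgenic, blue knockin, circles replicate 1 and triangles replicate 2, and the grey band spans the background limits of 146.5 to 148.7. Most readings of Notch2, Dll4, Jag1 and Rbpj lie below the band, down to 122.3 for Rbpj, and the highest, 150.8 for Dll4, lies above it. The blue triangles are the highest points of Notch1, Notch3, Dtx1, Hes1, Nrarp and Dll1.

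Notch1, the receptor that drives T lineage commitment, had a single probe. It read 672 and 506.9 in transgenic and 584.2 and 812.8 in knockin thymus. The groups overlapped, with the highest and the second lowest value both in the knockin line. Normalised log2 intensity was 9.06 ± 0.14 (SD, n = 2) in transgenic and 9.24 ± 0.19 (SD, n = 2) in knockin thymus, a difference of -0.185 (SE 0.126, limma adjusted p = 1.00). The 95% interval ran from 0.723-fold to 1.07-fold. Leaving out each array in turn kept the sign, from -0.32 without knockin replicate 1 to -0.05 without knockin replicate 2.

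Notch3 is a receptor of immature thymocytes and also of the mural cells of blood vessels. It gave signals of 429.9 and 368.9 in transgenic and of 318.7 and 448.3 in knockin thymus. In deposited signal knockin replicate 1 was the lowest array and knockin replicate 2 the highest, so the transgenic values lay between those of the knockin line. On the normalised log2 scale transgenic replicate 1 and knockin replicate 2 were level, at 8.422 each. After normalization the transgenic arrays were nearly equal (8.42 ± 0.01, SD, n = 2) and the knockin arrays spread more widely (8.24 ± 0.25, SD, n = 2). The difference was 0.17 (SE 0.129, limma adjusted p = 1.00), an interval of 0.922-fold to 1.37-fold. It moved to -0.007 without knockin replicate 1 and to 0.35 without knockin replicate 2. Markers of pericytes and smooth muscle, 4 of 8 above background on all arrays and Cnn1 on none, summed to 3136 and 1693 normalised intensity units in transgenic and to 1684 and 2075 in knockin thymus. Most of each sum came from Acta2. As mean log2 deviations from the mean of the arrays, these markers were at 0.295 and -0.134 in transgenic and at -0.168 and 0.008 in knockin thymus. On that scale Notch3 was at 0.093 and 0.078 in transgenic and at -0.263 and 0.093 in knockin thymus. The part of vessel cells in the Notch3 values was not tested. In such samples fewer cells of a type and less RNA per cell cannot be told apart.

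Notch2, a receptor known from marginal-zone B cells and myeloid cells, was not above background on any array on either of its 2 probes. The first probe read 147.6 and 133.6 in transgenic and 128.5 and 134 in knockin thymus, the first of these just under its array's limit of 147.7. The second read 141.6 and 143.2 against 127.1 and 127.3. The latter probe was the 1 with an unadjusted limma p under 0.05 (0.0123), and its limma adjusted p was 0.877. No fold is given for it because both groups were below background.

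Among the ligands, Dll1 was the only one of the 3 above background on all arrays, and it was so by a small margin. Dll1 is a Delta-like ligand that can induce T lineage development in culture. Signals of 161.9 and 153.9 in transgenic and of 151.4 and 174.4 in knockin thymus overlapped, with the knockin arrays at both ends. The difference was -0.03 (SE 0.111, limma adjusted p = 1.00), an interval of 0.826-fold to 1.16-fold, and it was 0.074 without knockin replicate 2.

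Dll4, the ligand on thymic epithelium that Notch1 meets in the organ, read 141.4 to 147.7 on the first of its 2 probes. Its second probe read 142.1 and 140.7 in transgenic and 140 and 150.8 in knockin thymus, where knockin replicate 2 was just above its background limit of 148.7. Jag1, a Jagged ligand of stromal and vascular cells, was at 133.6 to 136 on all arrays, below background throughout. Epithelial markers above background on all arrays summed to 18871 and 20417 normalised intensity units in transgenic and to 17832 and 18739 in knockin thymus. Most of each sum came from Ccl25 and Krt8. As mean log2 deviations from the mean of the arrays, the epithelial markers were at -0.028 and 0.053 in transgenic and at -0.117 and 0.091 in knockin thymus. Endothelial markers, 8 of 10 above background, summed to 2247 and 1980 against 2143 and 2257. The bounds set by background allow no statement on how Dll4 or Jag1 compared between the lines.

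Rbpj, the factor through which all Notch receptors reach their target genes, was below background on every array on all 3 probes. The 12 readings ranged from 122.3 to 144.4. On 1 probe the knockin arrays were both higher, at 130.7 and 138.5 against 122.3 and 126.2, and on another knockin replicate 1 was lowest at 122.9. The 3 probes therefore set no level for Rbpj in either line.

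Hes1 had the largest difference of the 6 measurable members, though it did not pass. Hes1 is a transcriptional repressor and a direct target of the Notch and Rbpj complex that sustains early thymocyte growth. Its signal was 219.1 and 232.1 in transgenic and 231.8 and 311.4 in knockin thymus. Knockin replicate 2 was the highest, while knockin replicate 1 was level with transgenic replicate 2. The log2 difference was -0.27 (SE 0.146, unadjusted p = 0.0962, limma adjusted p = 1.00), an interval of 0.661-fold to 1.04-fold. It was -0.11 without knockin replicate 2, -0.10 without transgenic replicate 1, -0.43 without knockin replicate 1 and -0.44 without transgenic replicate 2.

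Dtx1, a Deltex ubiquitin ligase induced by Notch that feeds back on the receptors, had signals of 260.7 and 287.8 in transgenic and of 263.3 and 343.1 in knockin thymus. Both lines covered the lower part of this range, and knockin replicate 2 was again highest in deposited signal. On the normalised log2 scale transgenic replicate 1 less replicate 2 was -0.43, a wider gap than that between the groups. Between groups the difference was -0.09 (SE 0.151, limma adjusted p = 1.00), an interval of 0.743-fold to 1.19-fold, and its sign turned without transgenic replicate 1 (0.13) or without knockin replicate 2 (0.032).

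Nrarp, an ankyrin-repeat protein induced by Notch that destabilises the active complex, was the member with a described link to miR-181. Signals were 371.1 and 352.4 in transgenic and 330 and 405.2 in knockin thymus, so in deposited signal the knockin arrays again enclosed the transgenic ones. After normalization transgenic replicate 2 was highest, at 8.325 against 8.253 on knockin replicate 2. Normalised log2 intensity was 8.25 ± 0.11 (SD, n = 2) in transgenic and 8.19 ± 0.08 (SD, n = 2) in knockin thymus. The difference of 0.05 (SE 0.109, limma adjusted p = 1.00) had an interval of 0.873-fold to 1.23-fold. It stayed between -0.03 and 0.13 when each array was left out, and was 0.11 without knockin replicate 2. In a simulation of this comparison over 45281 probes, 92% of the 2-fold changes and 8% of the 1.5-fold changes were called. The changed probes had a mean log2 intensity above 8, as had Notch1, Notch3 and Nrarp. The simulated spread was drawn from the same distribution for all probes, whatever their intensity. Recovery at the spread of these 3 genes was therefore not measured, nor was recovery for the dimmer probes of Dtx1, Hes1 and Dll1.

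**Figure D2:**
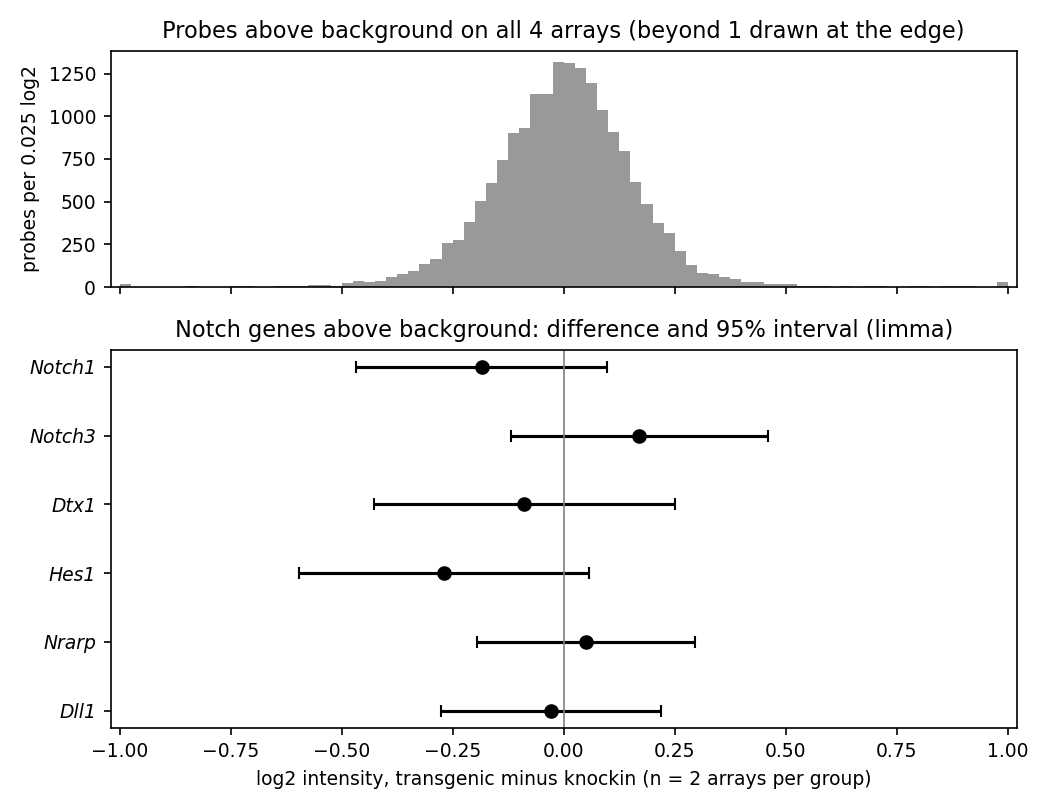
Lower panel, log2 intensity difference (transgenic minus knockin, n = 2 arrays per group) with the 95% limma interval for the 6 members above background on all arrays; upper panel, the number of probes per 0.025 log2 among all 18068 probes above background. All 6 intervals cross 0, and the points range from -0.27 for Hes1 to 0.17 for Notch3, within the spread of the whole array.

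In 6 of the 6 measurable members the 2 knockin arrays lay further apart than the means of the lines, as did 61.7% of all probes above background. Knockin replicate 2 was above knockin replicate 1 in 6 of 6 too, against 47.7% of all probes above background. On the normalised log2 scale the gap was 0.355 for Notch3, 0.32 for Hes1, 0.27 for Notch1, 0.25 for Dtx1, 0.21 for Dll1 and 0.12 for Nrarp. A larger positive gap was seen in 5.63% of probes above background for Notch3 and in 27.6% for Nrarp. These values compare 2 single arrays and have no replicate check.

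How far knockin replicate 2 led depended on the scaling. In deposited signal it was the highest of the 4 arrays in 6 of 6 members, but it was so in 53.8% of all probes above background too. After quantile normalization it was highest in 3 of 6, Notch1, Hes1 and Dll1, beside 24.5% of probes. With median scaling, which left the median of all probes above background 0.13 higher on knockin replicate 2 than on replicate 1, it was highest in 6 members and in 43.7% of probes, and with cyclic loess in 5 members and in 25.8% of probes. Its lead over knockin replicate 1 held in 6 of 6 members under each of these scalings, beside 82.9% of probes in deposited signal, 73.6% with median scaling and 49.2% with cyclic loess.

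Markers of several cell types were also higher on knockin replicate 2 than on knockin replicate 1. Relative to the mean of the 4 arrays, early thymocyte markers, 7 of 8 above background, were at 0.19 on knockin replicate 2 and at -0.14 on knockin replicate 1. Fibroblast markers, 6 of 8 above background, were at 0.26 and -0.06, macrophage markers, 7 of 7, at 0.18 and -0.05, and epithelial markers at 0.09 and -0.12. Double-positive thymocyte markers went the other way, at -0.115 and 0.15, as did B cell markers, 3 of 7 above background, at -0.004 and 0.099. Summed early thymocyte markers were 3111 normalised intensity units on knockin replicate 2, 2418 on knockin replicate 1, and 2897 and 2734 on the transgenic arrays. Granulocyte markers, 7 of 7 above background, were at 0.77 and 0.41 on knockin replicates 2 and 1 and at -0.48 and -0.70 on transgenic replicates 1 and 2. They had the median furthest from 0 among the cell type lists, at -1.17. By limma 3 of 7 genes were lower in transgenic thymus, against 0.117% of all genes called in either direction. The lists were chosen with earlier results of these data known, so this count is no independent finding. Knockin replicate 2 was also the array with the male pattern. The part of cell makeup and of sex in the members' values was not tested.

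**Figure D3:**
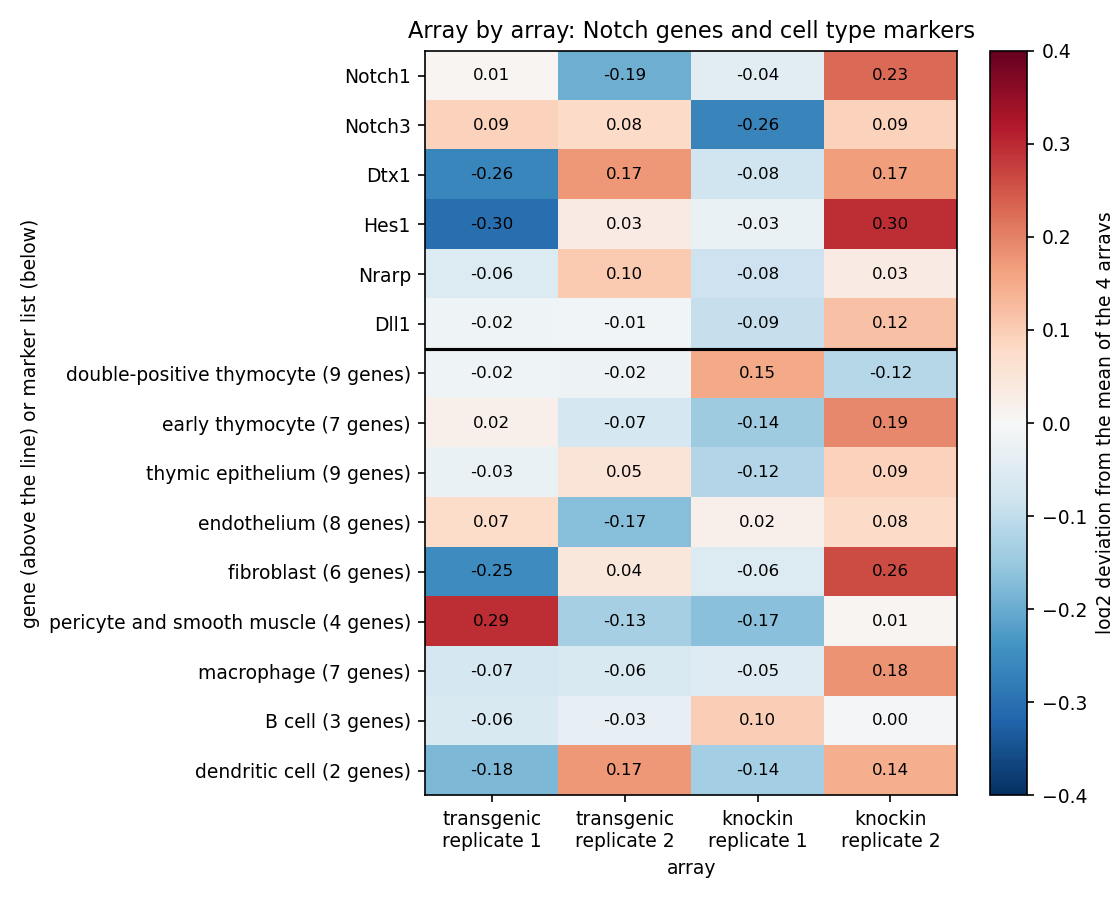
Log2 deviation of each array (columns) from the mean of the 4 arrays, for the 6 members above background (upper rows) and as the mean over the markers above background in each cell type list (lower rows), with red above and blue below the mean. Knockin replicate 2 is red or near white in all 6 members and lies between 0.03 for Nrarp and 0.30 for Hes1, while double-positive markers are at -0.115 there.

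The remaining machinery of the pathway was examined through 43 further genes, of which 40 were measured and 32 were above background on all arrays. None passed in either direction by limma, against 0.117% of all genes by their brightest probe, and 1 had an unadjusted p under 0.05, against 5.33% of all genes. Below 0 were 12 of 40, beside 49.6% of all genes, and the median difference was 0.05 against 0.001 over all genes. Without transgenic replicate 1 the count below 0 was 21 of 40 and the median -0.009, and without knockin replicate 2 they were 18 and 0.046. They were 11 and 0.067 without transgenic replicate 2, and 17 and 0.032 without knockin replicate 1.

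The gene with the smallest p was Dlk1, a Delta-like membrane protein that lacks the receptor-activating motif of the classical ligands. It read 192.6 and 181.7 in transgenic and 240.5 and 233 in knockin thymus. Both transgenic arrays were below both knockin arrays. The log2 difference was -0.44 (SE 0.119, unadjusted p = 0.00436, limma adjusted p = 0.633). Its second probe read 145.3 and 137.2 against 155.8 and 163.1, above background in the knockin arrays and not in the transgenic ones. No fold is given for this probe because the transgenic arrays were below background, and it did not pass (limma adjusted p = 0.947). On the brighter probe the difference was -0.57 without knockin replicate 2 and -0.30 without knockin replicate 1.

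Next by p came the ubiquitin ligase Mib1, which activates ligands in the sending cell, with 239.5 and 233.1 in transgenic and 217.6 and 218.9 in knockin thymus (log2 0.22, limma adjusted p = 1.00). Fbxw7, which marks the cut receptor for destruction, had a value of 0.20 on its brightest probe, and none of its 3 dimmer probes was above background on all arrays. Jag2, the second Jagged ligand, read 173.8 and 168 against 170.4 and 212 (log2 -0.18), and knockin replicate 2 was again highest. None of these genes passed. Notch4, the fourth receptor and known from endothelium, read 308.5 and 224 against 236.9 and 289.2, with overlapping groups. Hey1, a Notch-induced repressor, read 918.2 and 861.5 against 830.9 and 1102, while Hes5 was above background on 2 arrays and Heyl on none. Without knockin replicate 2 the log2 differences were 0.12 for Mib1, 0.085 for Fbxw7, -0.03 for Jag2, 0.14 for Notch4 and 0.062 for Hey1.

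Genes known to respond to Notch in thymocyte progenitors were all above background, 7 of 7, and none passed in either direction by limma, against 0.117% of all genes, with 0 at an unadjusted p under 0.05. Below 0 were 6 of 7, beside 49.6% of all genes, with a median of -0.19. The median was -0.14 without knockin replicate 2, -0.09 without transgenic replicate 2 and -0.25 without transgenic replicate 1, with 5 of 7 below 0 in each case. Without knockin replicate 1 it was -0.23 with 6 of 7 below 0. The growth regulator Myc read 167.5 and 147.2 in transgenic and 163.1 and 196.6 in knockin thymus (log2 -0.27, limma adjusted p = 1.00). Tcf7, a factor that Notch induces at the start of T lineage commitment, read 1990 and 1358 against 2005 and 2202 on its brightest probe (log2 -0.27) and 2018 and 1594 against 1699 and 2050 on the other (log2 0.04), so its probes disagreed. Gata3, a factor of T lineage commitment, read 782 and 639.3 against 730.9 and 1023 (log2 -0.23). Bcl11b, which closes off other lineages, had values of -0.21, -0.19 and -0.18 on its 3 probes. Its brightest probe was at 0.032 without transgenic replicate 2 and at -0.41 without transgenic replicate 1. Without knockin replicate 2 the differences were -0.14 for Myc, -0.30 for Tcf7, -0.09 for Gata3 and -0.225 for Bcl11b. Tcf7 was at -0.09 without transgenic replicate 2 and at -0.445 without transgenic replicate 1. Relative to the mean of the 4 arrays the 7 genes averaged -0.136 on transgenic replicate 2, 0.135 on knockin replicate 2, and -0.006 and 0.007 on transgenic replicate 1 and knockin replicate 1. Ptcra, the pre-T cell receptor alpha chain and a Notch target, read 255.8 to 276.6 on all arrays with a difference of -0.01, and of -0.17 without knockin replicate 2.

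**Figure D4:**
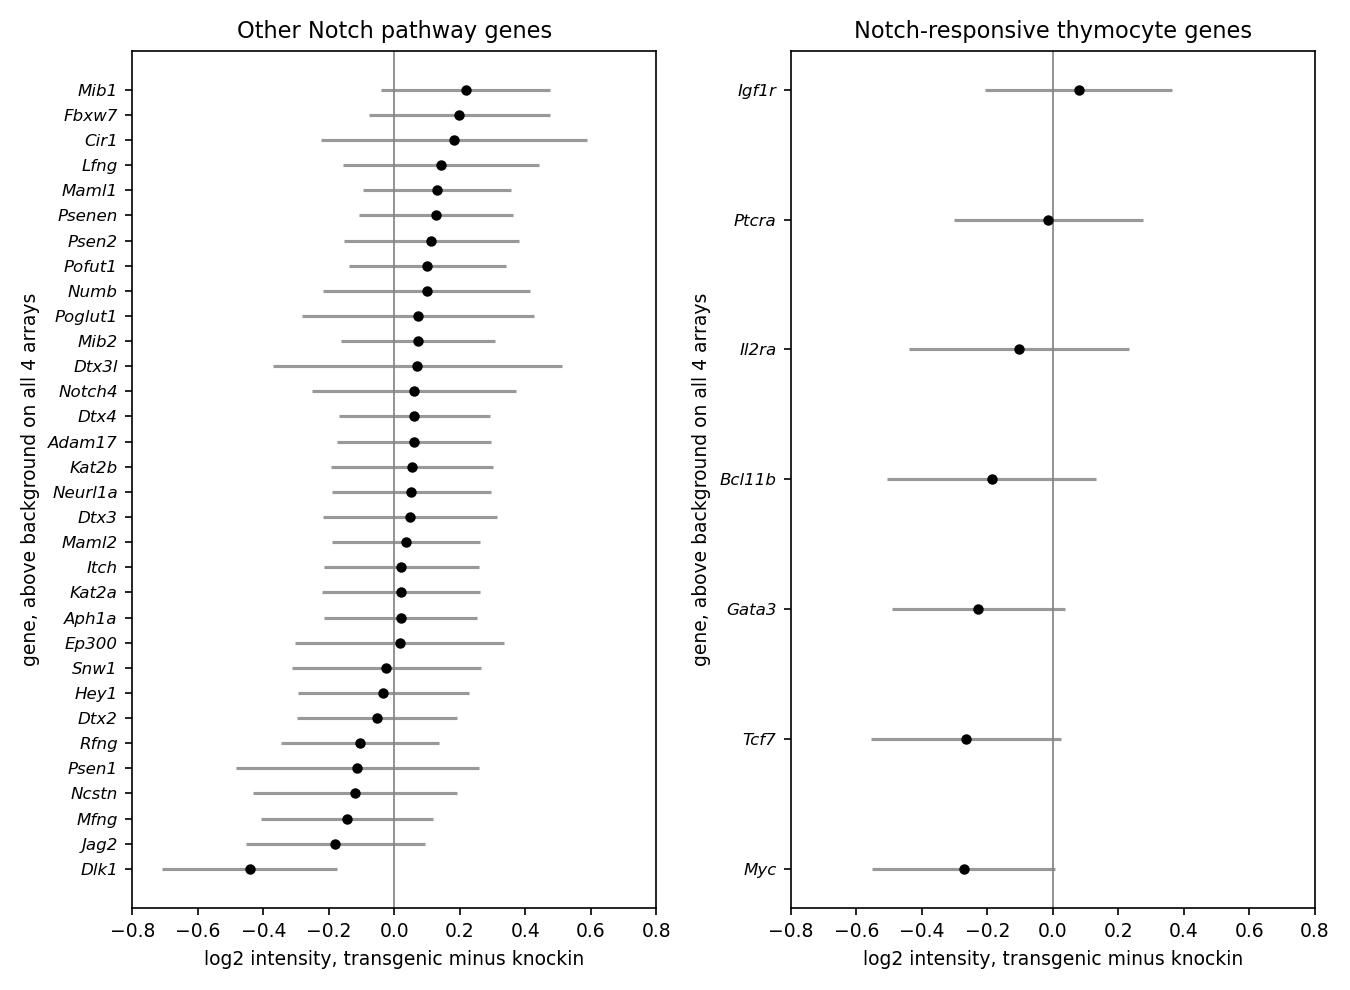
Log2 intensity difference (transgenic minus knockin, n = 2 arrays per group) with the 95% limma interval for the 32 other Notch pathway genes (left) and the 7 Notch-responsive thymocyte genes (right) above background on all arrays. The interval of Dlk1 lies below 0 without adjustment for the number of probes, and the intervals of the other genes drawn cross 0.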

How the data were processed

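Total RNA from whole thymus was amplified to biotinylated cRNA and read on bead arrays (Illumina MouseWG-6 v2.0), per the labels' protocols and the file headers. The authors deposited average bead signal intensity, written by GenomeStudio 1.9.0 with no normalization, per the file headers. It holds no detection p-values or control probes. A second table, the authors' deposited values, is processed intensity whose method is not given in the sources used here, and its probe names could not be tied to genes, so only a count of probes was taken from it (log2(value + 8)).

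Signals were background-corrected with normexp (offset 50), log2-transformed and quantile-normalized, and all 45281 probes were fitted with limma 3.58.1 in R 4.3.3 (two-sided, Benjamini-Hochberg). The offset and normalization shrink differences of dim probes. The background limit of an array was the mode of its signals plus 3 times the spread below that mode. Of the probes 76.8% matched 1 gene through RefSeq (GRCm38.p6, names only), and list genes were read from their brightest probe. Every probe of the 10 genes was named, plus the 4 genes with the smallest p of each further list, and Notch4, Hey1, Hes5, Heyl and Ptcra after their values were seen. Members and lists were chosen with earlier results of these data known. Tested on simulated data for this comparison (45281 probes, 50 changed 1.5-fold and 50 changed 2-fold among others), the fit made 7 false calls. Alternatives were other background settings, scalings and variance priors, the replicate number as a block, a filter on dim probes, other probe summaries, the authors' table and leaving out each array.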

Additional observations from a re-analysis of the deposited data

How the results depend on the processing

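No member passed the threshold under any of the 11 alternatives in which it was measured, and none of the 7 Notch-responsive genes did. Over these alternatives and the reported value Notch1 ranged from -0.32 to -0.05 and Hes1 from -0.44 to -0.10 without a change of sign. When each array was left out, Dll1 ranged from -0.14 to 0.074, Dtx1 from -0.31 to 0.13, Notch3 from -0.007 to 0.35 and Nrarp from -0.03 to 0.13. The sign turned for Dll1 without knockin replicate 2 (0.074), for Dtx1 without transgenic replicate 1 (0.127) or knockin replicate 2 (0.032), for Notch3 without knockin replicate 1 (-0.007), and for Nrarp without transgenic replicate 2 (-0.03) or knockin replicate 1 (-0.009). The cause was not tested. The 36 probes called over the whole array became 3 without background correction, 70 with an offset of 16, 2 with median scaling, 112 with an intensity trend and robust priors, 55 with the filter on dim probes, 0 by limma in the authors' value table (3299 at an unadjusted p under 0.05), and 24 to 88 when each array was left out and the lone array of its group was assumed to vary like the other group. With the replicate number as a block 38 probes passed and no member did, while same-numbered arrays deviated from their group means with a correlation of -0.359 over 18068 probes. The crossed pairing, chosen after seeing the data, called 364 probes, no member and 1 other pathway gene, Dlk1. Signal near background leaves Notch2, Dll4, Jag1 and Rbpj without a comparison.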
